A study of Mus musculus with 10 samples.

Results

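The genes described here encode matrix glycoproteins and fibroblast-associated proteins: Fn1, Fbn1, Postn, Tnc, Sparc, Spp1, Thbs1, Thbs2, Dcn and Thy1. Probes were taken when the gene name in the scanner files was one of these symbols or an older name of it, whatever their signal. This gave 21 probes of 10 genes, of 41174 probes and 19505 named genes on the array. Of the 21 probes, 20 carried the current symbol and 1 probe of Postn was listed under A630052E07Rik. All 10 genes were also in the normalized log2 table that the authors deposited.

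RNA of 10 mouse tumors was hybridised to 2-colour arrays, 1 array per tumor. The group called sarcomatoid carcinoma held 5 arrays of 3 origins. Mammary tumors 323, 307 and 594 made up 3 of them, and the other 2 were lung tumors labelled as transplanted, which per the methods grew after tail vein injection of cell lines made from mammary tumors 323 and 307. The adenocarcinoma group held mammary tumors 105, 131, 470, 17 and 85. All adenocarcinomas were Pik3caH1047R;Trp53R270H;MMTV-Cre tumors, so they carried both mutant alleles, and by elimination tumor 594 was the Trp53R270H;MMTV-Cre tumor. Of tumors 323 and 307, one was Pik3caH1047R;Trp53R270H;MMTV-Cre and the other Pik3caH1047R;MMTV-Cre with a spontaneous Trp53R245H mutation, and the sources used here do not say which is which. The mammary tumors arose in mice with MMTV-Cre, a transgene that drives Cre mainly in mammary epithelium. In the lung tumors only the injected cells trace to such mice, and their stroma can come from the recipient mouse, whose genotype the sources used here do not give for these tumors. What the reference RNA was is not given in the sources used here. The labels call tumor 594 a sarcomatoid carcinoma and the other sarcomatoid tumors sarcomatoid adenocarcinomas. The strain was C57BL/6 and ages were not given in the sources used here. Each pair of arrays with 1 number came from related cells, and nothing further states that the samples were separate cultures, so p-values measure only the spread between these samples.

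Fibroblasts and related stromal cells build a matrix of fibrils, microfibrils and the proteins that sit on them. Fibronectin (Fn1) and fibrillin-1 (Fbn1) are scaffold proteins on which other matrix is laid down. Periostin (Postn), tenascin-C (Tnc), osteonectin (Sparc), osteopontin (Spp1) and the thrombospondins (Thbs1, Thbs2) are matricellular: they are secreted into the matrix and act on cells through integrins and other receptors more than they bear load. Decorin (Dcn) is a small proteoglycan that binds collagen fibrils, and Thy1 is a surface glycoprotein of fibroblasts that also marks T cells and some other cells in the mouse. In tumors these proteins come from stromal cells and, in cancers with a mesenchymal form, from tumor cells as well. RNA of whole tumors holds all of these cells, so fewer cells of a type and less RNA per cell cannot be told apart.

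Upstream sequence is shown for 5 of the genes, 4 whose ratios went up and down together over the tumors (Postn, Fbn1, Thbs2 and Sparc) and Tnc, so that what their starts share or do not share can be read. RefSeq promoter windows on GRCm38.p6 were at hand for 6 of the 10 genes, in 9 entries, Spp1 being the other. The 250 bases before the annotated start are written 5′ to 3′ on the gene's strand: Postn at chr3:54360857-54361106 (+), Fbn1 at chr2:125506439-125506688 (−), Thbs2 at chr17:14694263-14694512 (−), Sparc at chr11:55420081-55420330 (−) and Tnc at chr4:64046937-64047186 (−). Capitals mark matches to TATAAA, the core of a TATA box, or GGGCGG, a GC box, on either strand.
Postn: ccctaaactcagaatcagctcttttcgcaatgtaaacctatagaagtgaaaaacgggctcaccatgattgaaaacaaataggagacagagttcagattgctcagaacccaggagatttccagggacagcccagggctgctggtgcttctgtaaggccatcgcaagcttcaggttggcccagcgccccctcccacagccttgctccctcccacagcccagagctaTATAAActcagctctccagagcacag
Fbn1: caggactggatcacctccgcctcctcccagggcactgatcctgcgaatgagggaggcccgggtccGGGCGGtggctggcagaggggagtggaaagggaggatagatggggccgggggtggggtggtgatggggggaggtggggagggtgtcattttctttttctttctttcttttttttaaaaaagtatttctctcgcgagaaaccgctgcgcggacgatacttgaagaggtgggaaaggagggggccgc
Thbs2: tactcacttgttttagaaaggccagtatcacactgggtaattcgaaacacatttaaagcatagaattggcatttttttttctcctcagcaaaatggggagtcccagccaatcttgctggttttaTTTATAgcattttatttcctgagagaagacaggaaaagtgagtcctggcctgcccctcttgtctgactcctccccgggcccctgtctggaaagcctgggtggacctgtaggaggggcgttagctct
Sparc: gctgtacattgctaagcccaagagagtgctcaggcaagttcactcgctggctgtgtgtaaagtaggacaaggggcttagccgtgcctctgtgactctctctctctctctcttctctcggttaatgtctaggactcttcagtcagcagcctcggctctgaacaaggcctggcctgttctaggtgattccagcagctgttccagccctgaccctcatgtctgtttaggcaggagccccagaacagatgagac
Tnc: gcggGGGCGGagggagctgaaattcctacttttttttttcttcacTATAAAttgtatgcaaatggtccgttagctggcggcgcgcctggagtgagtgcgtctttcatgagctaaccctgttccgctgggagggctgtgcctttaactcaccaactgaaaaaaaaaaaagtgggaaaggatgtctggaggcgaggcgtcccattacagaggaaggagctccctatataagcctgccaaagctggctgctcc

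In these windows Postn held TATAAA close to the start and Tnc held it far upstream with a GC box beside it. Only exact matches were marked. The Tnc window also holds tatataag close to its start, which misses TATAAA by its last letter. The run tatataa thus stands close to the start in Postn and in the Tnc entry shown. Tnc has a further entry whose start lies farther upstream, so the reading depends on the start chosen. TATAAA begins at -205 in the entry shown and at -126 in the other, whose window ends before this tatataa run. Thbs2 held TATAAA only on the other strand, as TTTATA, Fbn1 held a GC box alone, and the Sparc window held neither. Over all 32851 promoter windows of this length, 12.37% held TATAAA and 32.74% held GGGCGG on either strand. TGANTCA, the AP-1 core, which reads the same on both strands, stood in 6.749% of windows and GGAATG, the TEAD core, in 12.64%; none of the 9 member entries held either. The 2 motifs marked in capitals do not overlap in these windows. A match is only a run of letters, and none of these motifs stood in all 5 windows.

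Several facts about the arrays bear on every value. The labels name Cy3 (green) as the dye of the tumor RNA, but green varied less between arrays than red (mean SD of log2 signal 0.738 against 0.987). On that ground green was taken for the shared reference RNA, and each log2 ratio is likely tumor over reference. All 10 columns of the deposited table run the same way (r = 0.841 to 0.924 with red over green of their own array). If the dye label is right, the sign of every log2 ratio and difference in this text turns. Correlations between log2 ratios would keep their sign. The files were extracted with 3 software versions, called scan batches here: batch 1 held tumor 323, batch 2 held 307, 594, 105 and 470, and batch 3 held both lung tumors and 131, 17 and 85. From 52.2 to 83.0% of probes were well above background in red. Tumor 470 went against its label: the mean log2 ratio of 12 epithelial markers was -1.35 there and 2.56 to 3.10 in the other 4 adenocarcinomas, with -1.66 to 1.04 in the sarcomatoid tumors. Results between the groups are therefore given with and without tumor 470, and since measured values singled it out, those without it describe the other 9 arrays and are no independent support. Skeletal muscle markers also differed within groups, with means of 2.42, 5.00 and 3.36 in tumors 594, 105 and 470 and -1.39 to 0.49 in the others; the part of muscle tissue in the results was not tested.

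Between the sarcomatoid tumors and the adenocarcinomas, no member passed an adjusted p of 0.05 in limma's test over all 41174 probes. Over the whole array 0 probes passed (0%), with 4055 at an unadjusted p under 0.05. On the log2 scale 8 of the 10 genes had higher means in the sarcomatoid tumors and 2 lower, with a median difference of 0.84 beside -0.01 over all probes. At an unadjusted p under 0.05, 2 of the 21 probes were higher (both of Fn1), beside 4.74% of all probes, and 3 of 21 were lower (all of Thbs1), beside 5.11%. Each gene is described below by its probe of highest mean signal, unless another is named.

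**Figure D1:**
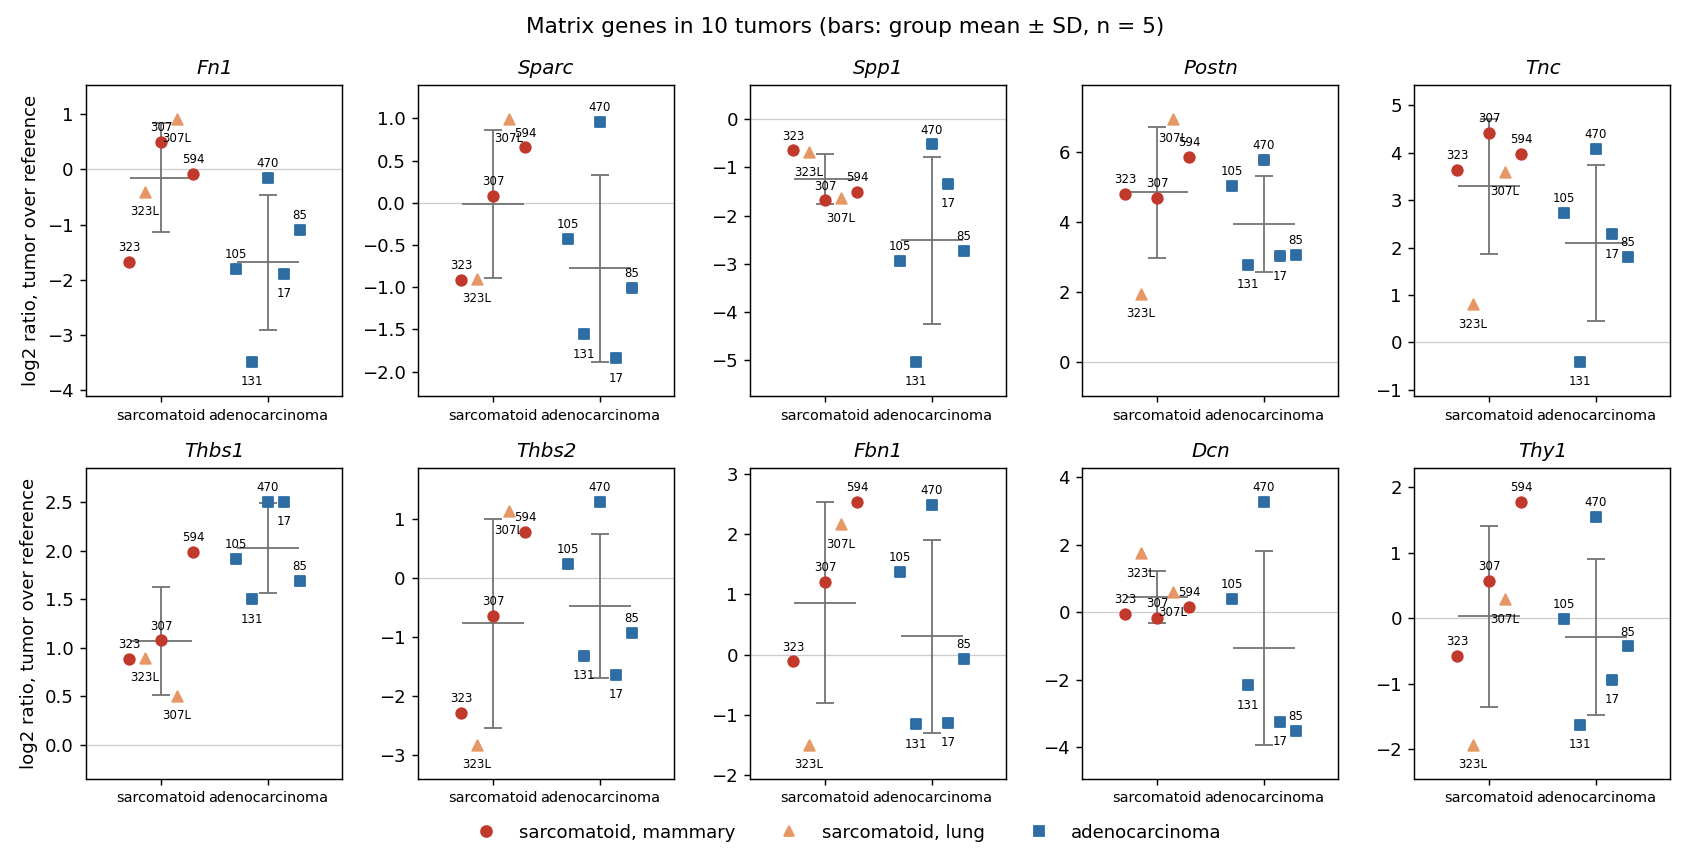
Log2 ratio of tumor over reference (vertical axis) of the brightest probe of each of the 10 genes on each array, labelled by tumor number (L, lung), with horizontal bars for the group means and error bars for the SD (n = 5 each). The groups overlap for every gene drawn, and the Dcn ratio of the adenocarcinomas runs from -3.51 to 3.27.

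Fn1 encodes fibronectin, the scaffold protein that cells bind through integrins. Its probe at chr1:71832689-71834926 (mm7) had log2 ratios of -1.67 in 323, -0.41 in 323 lung, 0.50 in 307, 0.91 in 307 lung and -0.08 in 594. In the adenocarcinomas they were -1.80 in 105, -3.49 in 131, -0.16 in 470, -1.89 in 17 and -1.09 in 85. Tumors 307 lung and 307 were the 2 highest of all and 131 the lowest, but 323 lay among the adenocarcinomas and 470 among the sarcomatoid tumors. The means were -0.15 ± 0.99 and -1.68 ± 1.22 (SD, n = 5 each), a log2 difference of 1.53 ± 0.64 (SE) or 2.90-fold, with a 95% interval of 0.10 to 2.96 and a limma adjusted p of 0.481. The other 2 probes of Fn1 gave differences of 1.23 and 0.82 (limma adjusted p 0.540 and 0.502). Of the 10 spots of Fn1 on an array 7 to 10 were used, and their SD had a median of 0.0427, from 0.0285 to 0.345 in tumor 323.

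Fbn1 encodes fibrillin-1, the main protein of microfibrils. At chr2:125041844-125041903 (mm7) its log2 ratios were -0.11, -1.49, 1.20, 2.17 and 2.54 in 323, 323 lung, 307, 307 lung and 594. The adenocarcinomas had 1.38, -1.15, 2.49, -1.13 and -0.07 in 105, 131, 470, 17 and 85. Both groups held high and low tumors, from 594 and 470 at the top to 323 lung at the bottom. The difference was 0.56 ± 0.94 (SE; limma adjusted p 0.897), less than the SD of either group (1.67 and 1.60). A further probe gave 0.47 and followed the first over the 10 tumors (r = 0.997).

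Postn encodes periostin, which binds collagen and integrins. At its brightest probe every tumor lay above the reference. At chr3:54519770-54519829 (mm7) its log2 ratios were 4.78, 1.95, 4.67, 6.93 and 5.84 in 323, 323 lung, 307, 307 lung and 594. The adenocarcinomas had 5.03, 2.76, 5.75, 3.02 and 3.05 in 105, 131, 470, 17 and 85. The 2 lung tumors were the lowest and the highest of all 10 tumors. The group difference was 0.91 ± 0.94 (SE; limma adjusted p 0.808). The probe listed under the older name was well above background in red on 7 of 10 arrays and in green on 4, tracked the first less closely (r = 0.586) and gave a difference of 0.48.

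Tnc encodes tenascin-C, a glycoprotein of healing wounds and tumor stroma that changes how cells adhere. Its log2 ratios at chr4:63394034-63394094 (mm7) were 3.64, 0.81, 4.42, 3.60 and 3.97 in 323, 323 lung, 307, 307 lung and 594. In the adenocarcinomas they were 2.72, -0.41, 4.09, 2.28 and 1.80 in 105, 131, 470, 17 and 85. The sarcomatoid tumors other than 323 lung lay above every adenocarcinoma but 470. The difference was 1.19 ± 0.88 (SE; limma adjusted p 0.726), and the other 2 probes gave 0.76 and 0.57.

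Sparc encodes osteonectin, a collagen-binding glycoprotein. At chr11:55352704-55355361 (mm7) the sarcomatoid tumors had log2 ratios of -0.91, -0.90, 0.08, 0.99 and 0.66 in 323, 323 lung, 307, 307 lung and 594. The adenocarcinomas had -0.43, -1.56, 0.96, -1.84 and -1.01 in 105, 131, 470, 17 and 85. Tumors 307 lung and 470 were the 2 highest, one from each group, and 17 was the lowest. The difference was 0.76 ± 0.57 (SE; limma adjusted p 0.733), with 0.72 at a further probe.

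Spp1 encodes osteopontin, a phosphoprotein made by macrophages, bone cells and many tumors, which binds integrins and Cd44. It lay below the reference in every tumor: -0.65, -0.69, -1.69, -1.64 and -1.51 in 323, 323 lung, 307, 307 lung and 594, at chr5:103631152-103631211 (mm7). In the adenocarcinomas the log2 ratios were -2.94, -5.03, -0.53, -1.34 and -2.74 in 105, 131, 470, 17 and 85. The sarcomatoid tumors were close together, with an SD of 0.52, and the adenocarcinomas spread over an SD of 1.72, with 131 lowest and 470 highest of all tumors. The difference was 1.28 ± 0.73 (SE; limma adjusted p 0.623). The 9 or 10 spots of Spp1 used per array had a median SD of 0.0427 and at most 0.256, on tumor 323. Spp1 moved with the mean of 12 macrophage markers over the tumors (r = 0.79, and 0.78 without tumor 470, n = 10 and 9 arrays). That mean ranged from 2.74 to 3.54 in the sarcomatoid tumors and from 1.11 to 3.09 in the adenocarcinomas. Dcn moved with it to a like degree (r = 0.77, and 0.81 without tumor 470). The remaining members had r from -0.16 (Thbs1) to 0.66 (Tnc) over the 10 arrays. The part of macrophages in these values was not tested.

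Thbs1 encodes thrombospondin-1, which restrains angiogenesis and activates latent TGF-beta. It was the only member whose 3 probes were all lower in the sarcomatoid tumors at an unadjusted p under 0.05. At chr2:117866887-117866946 (mm7) the log2 ratios were 0.88, 0.89, 1.07, 0.50 and 1.99 in 323, 323 lung, 307, 307 lung and 594. The adenocarcinomas had 1.91, 1.50, 2.51, 2.51 and 1.69 in 105, 131, 470, 17 and 85, so of the sarcomatoid tumors only 594 reached their range. The difference was -0.96 ± 0.30 (SE), a ratio of 0.515, with a 95% interval of -1.62 to -0.29 and a limma adjusted p of 0.404.

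The other 2 probes of Thbs1 kept the groups apart. They were dimmer than the first, with a mean log2 signal of 7.59 and 7.09 against 10.65. Both were well above background in red on 10 of 10 arrays and in green on 9. At chr2:117863442-117863501 (mm7) the sarcomatoid tumors had -0.33, -0.04, -0.18, -0.14 and 0.30 in 323, 323 lung, 307, 307 lung and 594, and the adenocarcinomas 0.43, 0.38, 0.72, 0.95 and 0.42 in 105, 131, 470, 17 and 85. At chr2:117861824-117862004 (mm7) these values were -0.30, -0.37, -0.19, -0.02 and 0.03, and 0.14, 0.11, 0.50, 0.54 and 0.26. All 5 sarcomatoid tumors lay below all 5 adenocarcinomas at both, in the scanner values and in the deposited table, beside 0.702% of 40884 probes that did so. No member probe had the groups apart in the other direction, as 0.646% of probes did. The differences were -0.66 ± 0.15 and -0.48 ± 0.12 (SE; limma adjusted p 0.378 at both). Within scan batches 2 and 3 the brightest probe gave -0.68 and -1.20 and the other 2 gave -0.52 and -0.68, and -0.40 and -0.50. Batch 2 holds tumor 470, and the sarcomatoid tumors of batch 3 were both lung tumors. Without tumor 470 the differences were -0.84, -0.63 and -0.43 (limma adjusted p 0.242, 0.105 and 0.140).

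**Figure D2:**
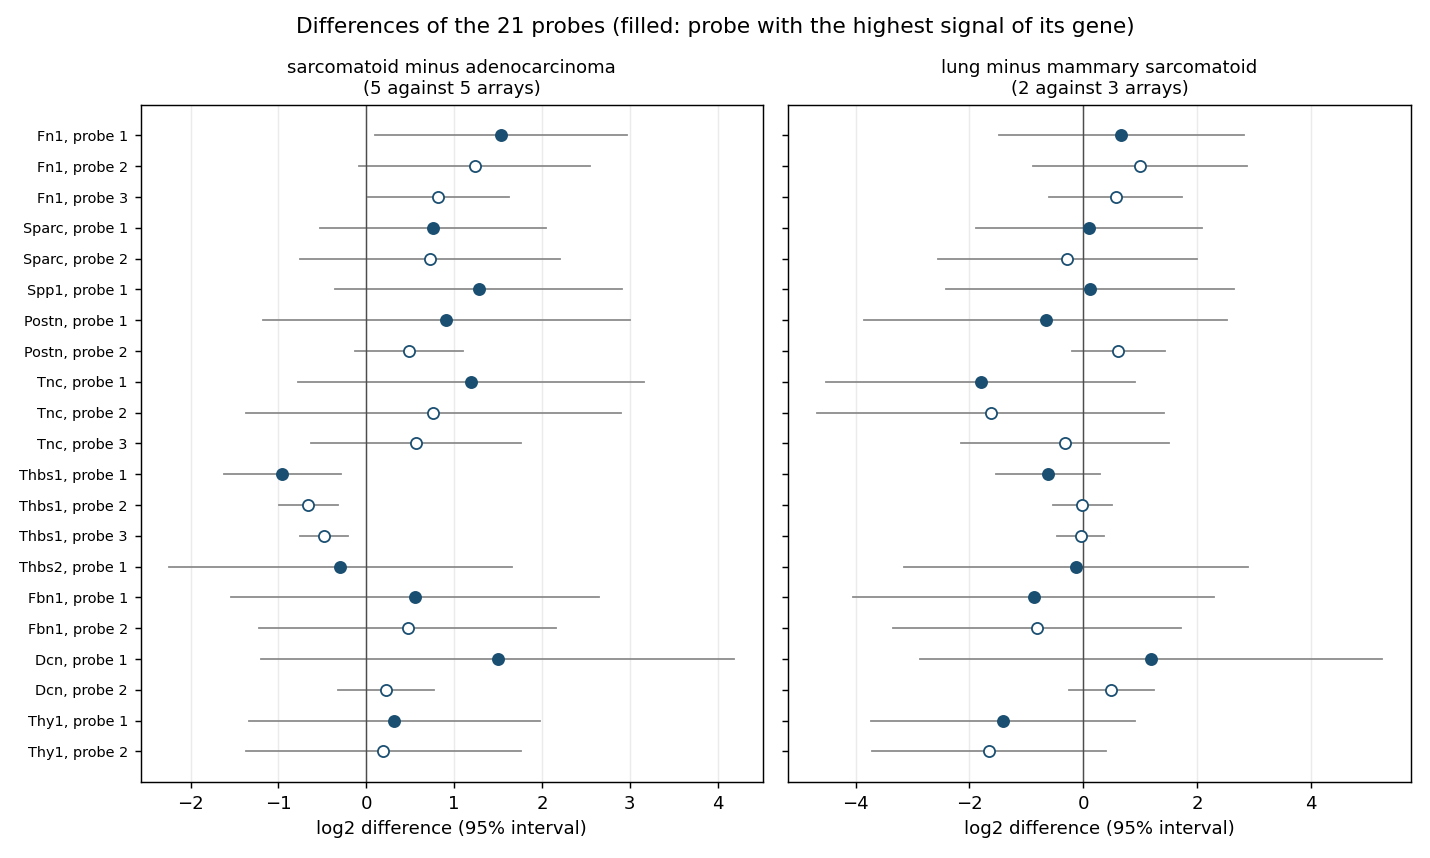
Log2 difference (horizontal axis) of each of the 21 probes, sarcomatoid minus adenocarcinoma on the left and lung minus mammary sarcomatoid on the right, with 95% intervals from limma as lines and the brightest probe of each gene filled. On the left the 3 intervals of Thbs1 lie below 0 and those of 2 Fn1 probes above 0, and on the right every interval spans 0.

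Thbs2 encodes thrombospondin-2, which restrains angiogenesis and shapes collagen fibrils. Its log2 ratios at chr17:12950083-12951346 (mm7) were -2.28, -2.82, -0.64, 1.15 and 0.78 in 323, 323 lung, 307, 307 lung and 594. The adenocarcinomas had 0.25, -1.32, 1.30, -1.64 and -0.93 in 105, 131, 470, 17 and 85. Unlike Thbs1, Thbs2 was lowest in both tumors numbered 323 and highest in 470 and 307 lung. The difference was -0.30 ± 0.87 (SE; limma adjusted p 0.945).

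Dcn encodes decorin, which binds collagen and growth factors. At chr10:97080086-97080145 (mm7) its log2 ratios were -0.06, 1.75, -0.17, 0.59 and 0.15 in 323, 323 lung, 307, 307 lung and 594. The adenocarcinomas had 0.40, -2.17, 3.27, -3.24 and -3.51 in 105, 131, 470, 17 and 85. The sarcomatoid tumors held to a narrow band (SD 0.78), and the adenocarcinomas spread from far below it to above it (SD 2.87). The difference was 1.50 ± 1.20 (SE; limma adjusted p 0.752). Without tumor 470 it was 2.58 ± 0.78 (SE; unadjusted p 0.00967 and limma adjusted p 0.155). With tumor 470 kept, the difference was -1.85 within scan batch 2, which holds tumor 470, and 4.14 within batch 3. In batch 3 the sarcomatoid arrays were the 2 lung tumors, set against mammary adenocarcinomas 131, 17 and 85. A dimmer probe, above background in red on 4 of 10 arrays, gave 0.23.

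Thy1 marks fibroblasts among stromal cells. Its log2 ratios at chr9:43982862-43982921 (mm7) were -0.57, -1.93, 0.58, 0.29 and 1.78 in 323, 323 lung, 307, 307 lung and 594. The adenocarcinomas had -0.0035, -1.62, 1.55, -0.94 and -0.43 in 105, 131, 470, 17 and 85. Tumor 594 was highest and 323 lung lowest, so the sarcomatoid group held both ends. The difference was 0.32 ± 0.74 (SE; limma adjusted p 0.929), with 0.19 at a further probe. Thy1 also went with the mean of the T cell markers (r = 0.75, 10 arrays) and of the endothelial markers (r = 0.87). Other members did so too. With the T cell mean r was 0.73 for Fbn1, 0.70 for Tnc and 0.68 for Postn, and 0.14 to 0.54 for the rest. With the endothelial mean it was 0.84 for Fbn1, 0.82 for Thbs2 and 0.71 for Sparc, and -0.03 to 0.64 for the rest. The part of those cells in these values was not tested.

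Leaving out tumor 470 widened most group differences without bringing a member past the threshold. The differences were 1.92 for Fn1, 1.19 for Sparc, 1.78 for Spp1, 1.37 for Postn, 1.69 for Tnc, 1.10 for Fbn1, 0.78 for Thy1 and 0.15 for Thbs2, with a median of 1.28 over the 10 genes, 9 of them higher. Over the array 635 probes passed an adjusted p of 0.05 without it (1.54%), and 0 of the 21 member probes did. At an unadjusted p under 0.05, 6 member probes were then higher, beside 7.10% of all probes. They were probes of Fn1, Sparc, Spp1 and Dcn. The 3 lower ones were those of Thbs1, beside 7.74%. The median difference of the 10 genes was 0.02 within scan batch 2, which holds tumor 470, and 1.31 within batch 3, whose sarcomatoid tumors were both lung tumors.

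The tumors differed widely from each other in most members. The SD over the 10 tumors was 2.13 for Dcn, larger than that of 99.8% of the 20266 probes well above background on all arrays, whose median SD was 0.429. It was 1.61 for Postn, larger than 98.8% of them, 1.58 for Tnc, 1.57 for Fbn1, 1.44 for Thbs2, 1.38 for Spp1, 1.32 for Fn1, 1.23 for Thy1 and 1.02 for Sparc. Thbs1 varied least, with 0.70, which was larger than 82.0%. The green signal of these probes varied little from array to array, with SDs of 0.11 to 0.34.

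Postn, Fbn1, Thbs2, Sparc and Thy1 went up and down together over the tumors. Their pairwise correlations of log2 ratio were 0.82 to 0.94 over 10 arrays of 8 tumor numbers, which share a reference and 3 scan batches (Spearman's rho 0.77 to 0.96; 0.77 to 0.93 without tumor 470; 0.78 to 0.93 in the deposited table). Tnc followed these 5 less closely (r = 0.56 to 0.84), Fn1 followed Sparc (0.80) and Dcn followed Sparc (0.70). Thbs1 had r from -0.30 to 0.32 with the other 9 (-0.59 to 0.11 without tumor 470), and Spp1 had r from -0.04 to 0.63 (-0.25 to 0.61). These correlations are a description and no batch held the 6 arrays that a value within it would need.

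**Figure D3:**
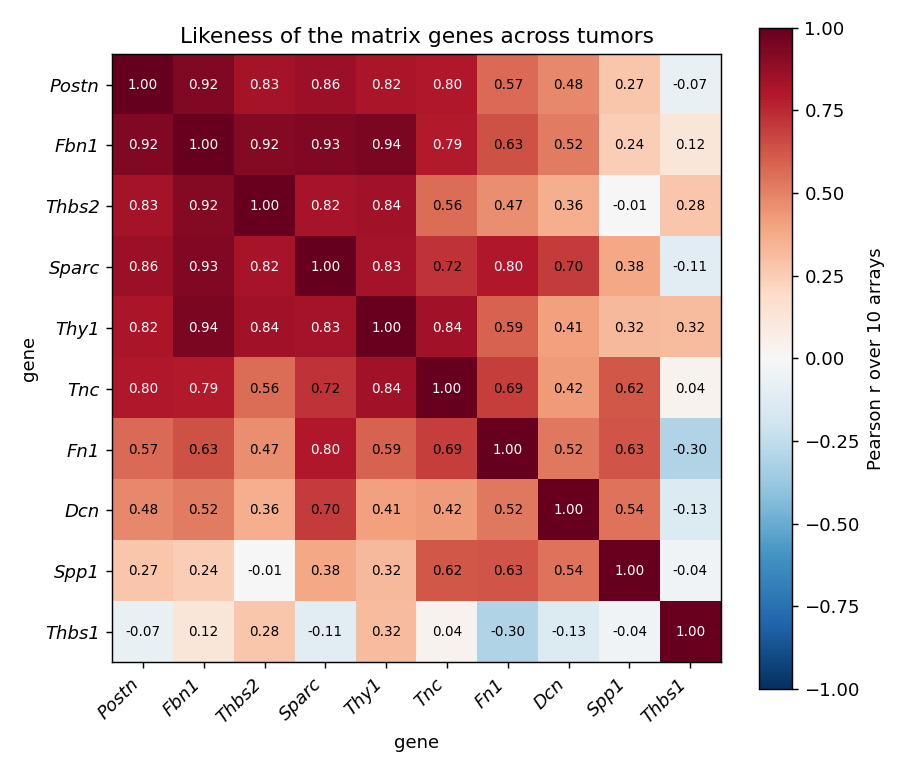
Pearson correlation of log2 ratio over the 10 arrays for each pair of the 10 genes (colour scale from -1 to 1). Postn, Fbn1, Thbs2, Sparc and Thy1 form a block of 0.82 to 0.94, and the Thbs1 row stays between -0.30 and 0.32.

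The tumors' order followed from this block. Tumors 470, 594, 307 lung and 105 held the 4 highest values of Thbs2 and Fbn1 and also those of Postn, and tumor 323 lung had the lowest value of Postn, Fbn1, Thbs2 and Thy1. For neighbouring tumors this order rests on single arrays and has no replicate error of its own. Tumors 470, 594 and 105 were all in scan batch 2 and had the highest skeletal muscle means (3.36, 2.42 and 5.00). Tumor 307 was in batch 2 as well, and 307 lung and 323 lung were in batch 3. The part of scan batch and of muscle tissue in this order was not tested.

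The genes most like each member were sought among 17986 probes of 11805 genes, by correlation over the 10 arrays. Postn was nearest to Dnm3os, a non-coding RNA gene (0.989), and Aspn, the proteoglycan asporin (0.970). Sparc was nearest to Serpinh1, the collagen chaperone (0.988), and Rcn3 (0.976). Thbs2 was nearest to the collagen chain genes Col6a3 (0.973) and Col1a1 (0.968). Fbn1 was nearest to Mmp14, a membrane metalloproteinase (0.971), and Fap, a fibroblast surface protease (0.970).

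Fn1 was nearest to Itga5, a chain of its own receptor (0.957), and Olfml2b (0.954). Thy1 was nearest to Fibin (0.960) and Tshz3 (0.956), and Tnc to Col8a1 (0.955) and Rab23 (0.935). Dcn was nearest to Pcdhb5 (0.955) and Thbd (0.939), Spp1 to Tmem237 (0.966) and Cers5 (0.954), and Thbs1 to Irak2, a kinase of innate immune signalling (0.934), and Atp6v0a1 (0.914). These correlations carry no test.

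The mean of the fibroblast and pericyte markers, with Lum left out of the 12, moved with the same genes. Its correlation over 10 arrays was 0.96 with Fbn1, 0.93 with Thbs2, 0.90 with Sparc, 0.89 with Postn, 0.84 with Thy1, 0.64 with Tnc, 0.60 with Fn1 and 0.54 with Dcn. It was 0.19 with Spp1 and 0.09 with Thbs1. With the mean of the 12 epithelial markers the correlation was -0.78 for Dcn, -0.73 for Fn1, -0.68 for Sparc and -0.62 for Spp1 (-0.73, -0.72, -0.60 and -0.56 without tumor 470). It was -0.39 to -0.25 for Postn, Tnc, Thbs2, Fbn1 and Thy1, and 0.39 for Thbs1, which had 0.75 without tumor 470. These are the markers that differed most by list median between the groups, and their part in the members' values was not tested. The mean of all 12 fibroblast and pericyte markers was -0.88 to 1.77 in the sarcomatoid tumors and -1.10 to 1.61 in the adenocarcinomas. The groups thus shared its range. None of these 12 fibroblast and pericyte markers passed the group test, adjusted or unadjusted.

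**Figure D4:**
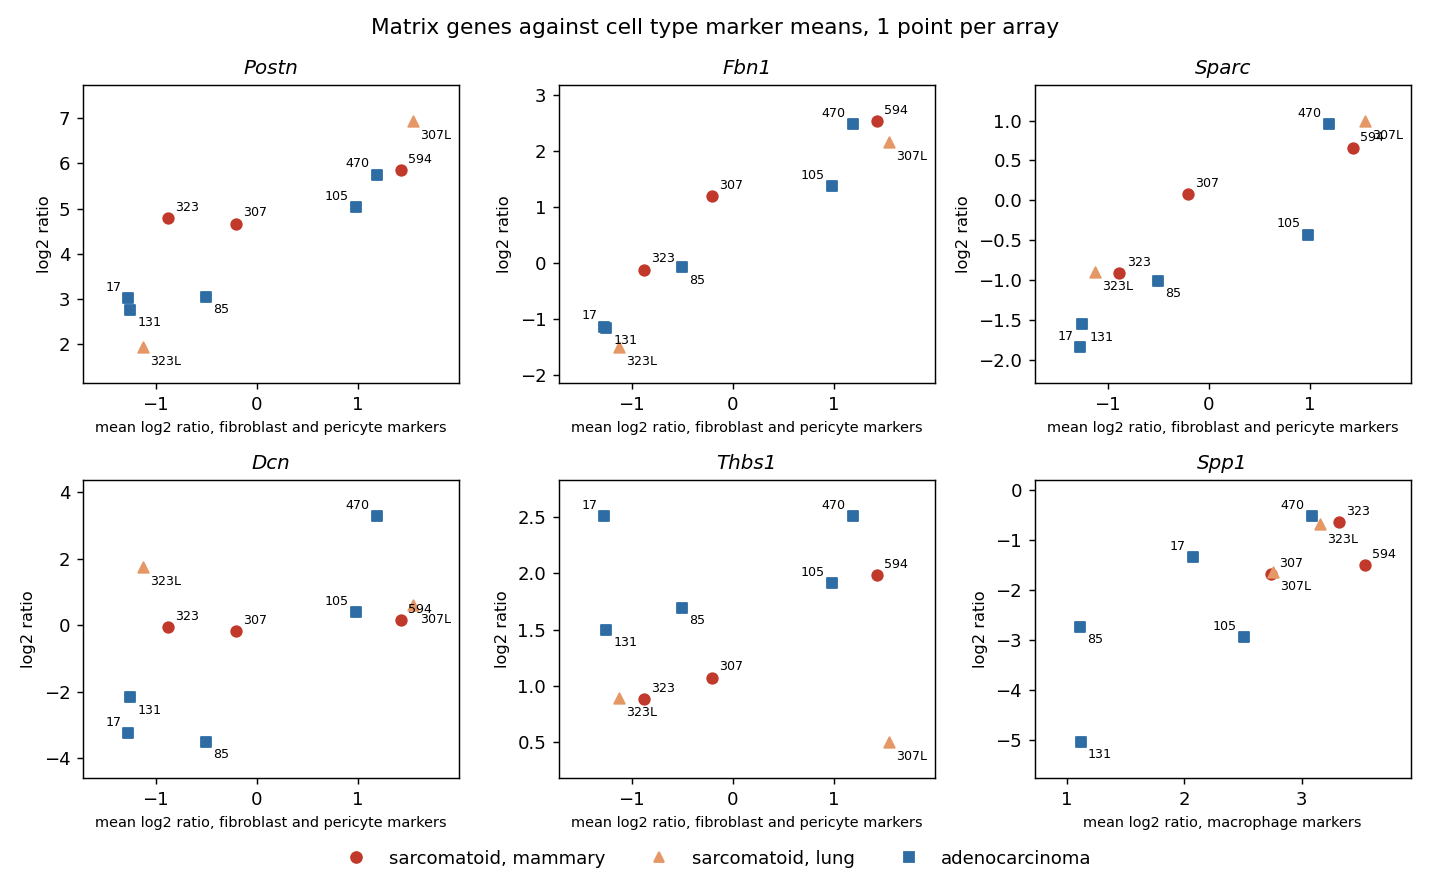
Log2 ratio of Postn, Fbn1, Sparc, Dcn and Thbs1 against the mean log2 ratio of the fibroblast and pericyte markers without Lum, and of Spp1 against that of the macrophage markers, 1 point per array labelled by tumor number (L, lung). Fbn1 is high where the fibroblast and pericyte mean is high (r = 0.96), Thbs1 shows no such order (r = 0.09), and Spp1 is lowest in tumor 131, at a low macrophage mean.

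Lung tumors were set against mammary sarcomatoid tumors next, 2 arrays against 3, in a fit that also held the adenocarcinomas. No member passed the adjusted threshold, beside 2 of 41174 probes on the array (0.00486%), and none of the 21 probes reached an unadjusted p under 0.05, beside 7.06% of all probes. The log2 differences, lung minus mammary, were 1.20 for Dcn, 0.67 for Fn1, 0.12 for Spp1, 0.11 for Sparc, -0.13 for Thbs2, -0.61 for Thbs1, -0.66 for Postn, -0.87 for Fbn1, -1.42 for Thy1 and -1.80 for Tnc. Tnc had the most negative value, -1.80 ± 1.20 (SE; limma adjusted p 0.817). Their median was -0.37, beside -0.01 over all probes. Every lung tumor was in scan batch 3 and every mammary sarcomatoid tumor in batches 1 and 2, so site and scan batch cannot be told apart within this group.

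The 2 pairs of tumors with 1 number differed in direction for Postn, Fbn1 and Thbs2. In tumor 323 the lung tumor minus the mammary tumor gave -2.84 for Postn, -1.38 for Fbn1, -0.54 for Thbs2 and 0.02 for Sparc. In tumor 307 these were 2.26, 0.97, 1.78 and 0.91. Postn was past 2-fold lower in one and past 2-fold higher in the other, as were 0.520% of 41161 probes, and it was the 1 member probe that was. For both pairs together this rests on 4 arrays with no replicate of a pair, so it has no test.

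Dcn, Fn1, Tnc and Thy1 kept their sign in both pairs. Dcn was higher in the lung tumors by 1.80 in 323 and 0.77 in 307, and Fn1 by 1.26 and 0.41. Tnc differed by -2.83 and -0.82, and Thy1 by -1.36 and -0.29. Spp1 differed by -0.04 and 0.05 and Thbs1 by 0.01 and -0.57. In tumor 323, 7 member probes were past 2-fold lower in the lung, beside 4.84% of all probes, and 3 past 2-fold higher, beside 4.59%. In tumor 307, 2 were past 2-fold lower, beside 3.75%, and 3 higher, beside 3.69%.

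**Figure D5:**
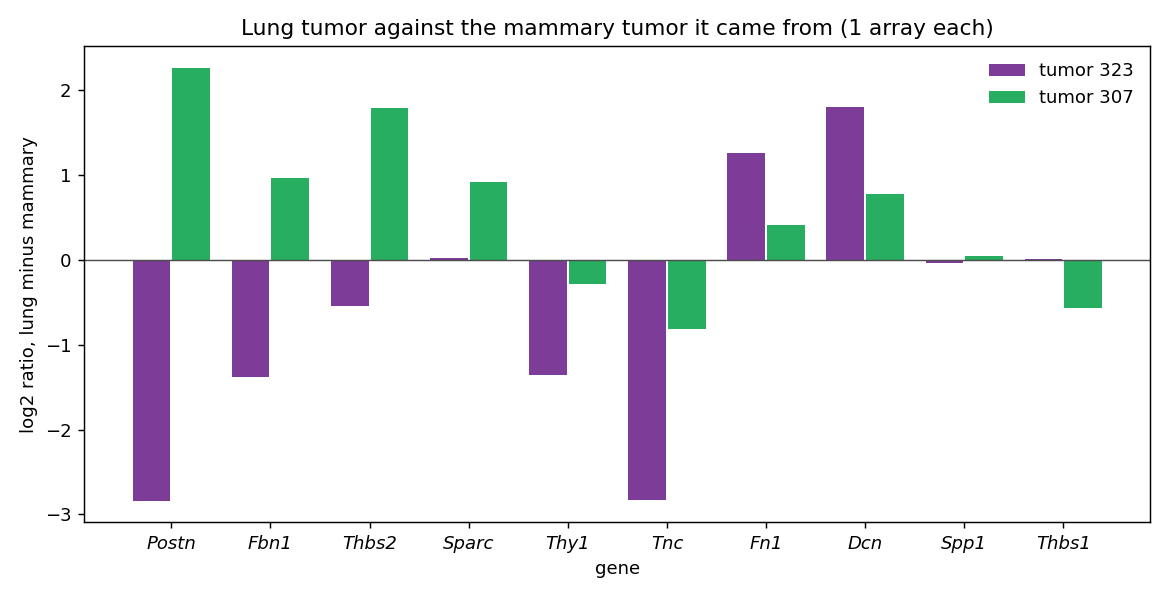
Log2 difference, lung minus mammary tumor of the same number (vertical axis), for the brightest probe of each of the 10 genes, with a bar for tumor 323 and a bar for tumor 307 and 1 array behind each value. The bars of Postn point opposite ways, -2.84 in tumor 323 and 2.26 in tumor 307, while those of Dcn, Fn1, Tnc and Thy1 point the same way in both.

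Marker means moved with the pairs. The median difference of the 12 fibroblast and pericyte markers, lung minus mammary, was -0.82 in tumor 323 and 1.81 in 307, and that of the 9 genes of small leucine-rich proteoglycans and versican was -1.23 and 2.48. All 12 epithelial markers were lower in the lung tumors of both pairs, with medians of -3.16 and -2.66. The 9 T cell markers measured, which bear on Thy1, had medians of -0.99 and -0.47. In the comparison of sites 4 of them were lower in the lung tumors at an unadjusted p under 0.05, beside 7.06% of all probes in either direction. The 10 endothelial markers had medians of -0.23 and -0.84, 1 of them (Vwf) lower at that p, and the 10 skeletal muscle markers had 1.42 and 1.17, with none past it. The mean of the lung epithelial markers was 0.29 to 0.51 in all 5 sarcomatoid tumors, lung ones included, and 2 of the 10 were well above background on all arrays. The part of these cells in the members' values was not tested.

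Lists of related genes were read from the same fit. None of their genes passed the adjusted threshold in either comparison. Between lung and mammary sarcomatoid tumors, 3 of 20 matricellular relatives were lower at an unadjusted p under 0.05 and 0 higher. They were Ccn5 (-2.46), Fgl2 (-1.85) and Smoc1 (-1.85). The other lists of related genes held 0 at that p, beside 7.06% of all probes in either direction. At an unadjusted p under 0.05 between the groups, 4.74% of all probes were higher and 5.11% lower. Between the sarcomatoid tumors and the adenocarcinomas, 3 of 20 matricellular relatives (Ccn4, Thbs3 and Tgfbi) had an unadjusted p under 0.05 in the higher direction. In the lower direction 0 did, and the median was 0.19. The largest differences were 2.21 for Ccn4, a WNT-induced matricellular gene, 1.58 for Thbs3 and 1.42 for Ecm1. Ecm1 did not reach that p. Without tumor 470, Ccn4 differed by 2.84 (limma adjusted p 0.0356), the 1 relative of the list past the threshold. Of all probes 1.54% passed it in that fit.

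Among the 9 genes of small leucine-rich proteoglycans and versican, 1 (Ogn) was higher at an unadjusted p under 0.05 and the median was 0.71. Ogn (osteoglycin) had 2.51, Lum (lumican) 1.34 and Aspn 0.73. Of 15 microfibril and elastic fibre genes, 2 were higher (Efemp1 and Ltbp1) and the median was 0.14. The largest differences were 1.56 for Efemp1, 1.45 for Emilin1 and -1.31 for Fbln1. Emilin1 and Fbln1 did not reach that p. Of 15 receptors of these proteins, 2 were higher (Itga4 and Cd47) and 2 lower (Itga8 and Sdc4). The largest differences were -1.20 for Itga8, 1.14 for Itga5 and 1.12 for Itga4, and Itga5 did not reach that p. Cd47, a thrombospondin receptor, differed by 0.97 without tumor 470 (limma adjusted p 0.0356).

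Markers of other cells were read in the same way between the sarcomatoid tumors and the adenocarcinomas. Of the 12 epithelial markers 7 were lower at an unadjusted p under 0.05 and 0 higher, with a median of -2.16, led by the keratin Krt18 at -3.23. Of the 12 macrophage markers 8 were higher and 0 lower, with a median of 1.40, led by Adgre1 at 1.80. Of all probes 4.74% were higher and 5.11% lower at that p. Tumor 470 was singled out by these epithelial markers, so leaving it out is no test of them. Without it the macrophage gene Itgam differed by 1.73 (limma adjusted p 0.0463). Between these groups, no T cell, endothelial, skeletal muscle or adipocyte marker reached an unadjusted p under 0.05, and of 10 lung epithelial markers 1 did, Hopx, at 1.82.

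In the deposited log2 table the members' values rose and fell with those from the scanner files, but values of dimmer probes were not close. The dim Postn probe had 4.10 in 307 lung, against 1.73 in the scanner values. Group differences at dimmer probes were also larger there. They were 0.98 against 0.23 for the dim Dcn probe and 1.20 against 0.48 for the dim Postn probe. A Tnc probe gave 1.28 against 0.76, and a Thbs1 probe -0.86 against -0.48. Over the 10 arrays, the correlation of the deposited values with the scanner values was 0.925 for the dim Dcn probe and 0.940 for the dim Postn probe, and at least 0.985 for the other 19. The deposited values of the brightest Postn probe ran from 2.01 in 323 lung to 7.46 in 307 lung, Dcn from -3.66 in 85 to 3.23 in 470, and Tnc from -0.47 in 131 to 4.47 in 307. Spp1 ran from -4.73 in 131 to -0.44 in 323, so its highest tumor was 323 there and 470 in the scanner values. The group differences had a median of 0.84 over the 10 genes, with 8 higher and 2 lower, and none of the 21 probes passed the adjusted threshold. Between the sites, the dim Postn probe differed by 2.06 in the deposited table, lung minus mammary (limma unadjusted p 0.0145, adjusted p 0.365). No other member probe had an unadjusted p under 0.05 there, and 4294 of all 40196 probes did.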

How the data were processed

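RNA of 10 mouse tumors was measured on Agilent 2-colour arrays, 1 per tumor. The scanner files, deposited as extracted by the maker's software, hold spot intensity in both channels with local background and flags. The authors also deposited a normalized log2 table, and their methods name limma without the steps. Median intensities were corrected with normexp (offset 50), control spots were removed, each array was loess normalized, outlier spots were dropped, and the remaining spots were averaged by probe. Log2 ratios, red over green, were fitted with limma 3.58.1 in R 4.3.3 (two-sided, Benjamini-Hochberg over all 41174 probes, threshold 0.05). The scripts were tested on simulated data. Arrays were grouped by their labels. No array was dropped and no member value imputed. From 52.2 to 83.0% of probes were well above background in red, and the 10 arrays limit the precision. Coordinates are mm7, as the file of tumor 323 gives them.

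The members and lists were chosen with earlier results of these data known. The brightest probe stands for a gene, the others being given beside it. For each list of related genes the text names the 3 with the largest differences between the groups, among genes well above background in red on all 10 arrays. It also names genes of these lists at an unadjusted p under 0.05, and for each member the 2 genes of highest correlation. Of the cell type marker lists only some genes are named. Alternatives were the deposited table, other background correction and scaling, red alone, dim and outlier spots, scan batch, slide, tumor number, the next probe, mammary tumors alone and each array left out.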

Additional observations from a re-analysis of the deposited data

Results flagged for a closer look

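One value lay apart from its group. Tnc had a log2 ratio of 0.81 in the lung tumor numbered 323, while the next lowest of the 5 sarcomatoid tumors, 307 lung, had 3.60. The gap was 0.774 of the group's whole range, above the critical value of 0.71 for 5 samples. Of 20 groups looked at, 10 genes in each of 2 groups, 1 was picked out, and chance picks about 1 in 20.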

How the results depend on the processing

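No member's brightest probe passed the adjusted threshold in any alternative run; its lowest adjusted p was 0.155 between the groups and 0.309 between the sites. The Thbs1 difference stayed negative in all 26 alternatives (-1.20 to -0.66). Between the groups, the probes passing over the whole array were 1 with median centring, 3 with slide as a block, 3 with 1 value per tumor number and 0 to 635 when arrays were left out in turn, 635 being without tumor 470. Within scan batch 2 the differences of Postn, Fbn1 and Dcn were -0.13, -0.062 and -1.85, and within batch 3 that of Thbs2 was 0.46. The median over the members was 0.02 and 1.31 within these batches. Batch 2 holds tumor 470, and batch 3 sets lung sarcomatoid tumors against mammary adenocarcinomas. With an array left out, Thbs2 ran from -0.77 to 0.22 and Thy1 from -0.12 to 0.81; the cause was not tested.

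Between the sites, 10 probes passed in the deposited table, 3 with median centring, no background correction or processed signals, 5 in red alone, 5 with the sarcomatoid arrays alone, 0 with scan batch as a term and 0 to 34 with an array left out. The members' median was 1.20 with the batch term and -1.48 to 0.79 with an array left out. Signs turned for Spp1 in the deposited table (-0.32) and red alone (-0.32), for Sparc in red alone (-0.039) and at its next probe (-0.28), and for Postn at its next probe (0.62). The batch term gave 1.63 for Postn, 0.19 for Tnc, 1.16 for Thbs2 and 1.18 for Fbn1, and the slide block gave 0.0064 for Thbs2. With an array left out the ranges were -0.84 to 1.05 for Sparc, -0.36 to 0.59 for Spp1, -3.15 to 1.83 for Postn, -2.11 to 1.86 for Thbs2 and -2.70 to 0.96 for Fbn1. With tumor number as a replicate block, 0 probes passed the adjusted threshold and 5125 had an unadjusted p under 0.05, and Thbs2 had 0.62. No paired analysis was possible between the groups because the replicate numbers follow deposit order and no tumor number stands in both. Of single-gene values 462 kept their direction and side of the threshold and 28 turned sign. The causes were not tested.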
